A study of Mus musculus with 12 samples.

Results

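REV-ERBalpha re-expression livers were compared with control livers over all genes with a mean abundance of at least 1 TPM across the 8 libraries of these 2 groups, which kept 17971 of the 48537 genes in the deposited table. TPM is a transcript abundance per unit of transcript length, scaled to a common total in every library. The comparison asks what still differed from control once REV-ERBalpha had been put back. The data were total RNA sequencing of mouse liver taken at zeitgeber time 10, counted in hours from lights on, with 4 livers in each group. Control livers had the genotype wildtype and titles with YFP. A further 4 livers, labelled DKO here, had the genotype REV-ERBs double-knockout, titles with DKO and YFP, and column names with YFP and Cre. Re-expression livers had the genotype REV-ERBalpha re-expressing, titles with DKO and REV-ERBalpha-WT, and column names with YFP and WT. YFP therefore stands in the column names of all 3 groups, and the DKO label is shared by the groups other than control. By its title the re-expression returned REV-ERBalpha alone. Effects of the labelled knockout of REV-ERBbeta therefore cannot be told apart from other effects in the comparison with control. Strain, age, sex, the vector, and the promoter and cell type that drove Cre or the transgene do not stand in the sources used here. Effects of Cre or of the delivery cannot be told apart from effects of the REV-ERB genes in this comparison.

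Nr1d1 encodes REV-ERBalpha and Nr1d2 encodes REV-ERBbeta, heme-binding nuclear receptors that repress transcription. They bind the same DNA elements as the activating ROR receptors, called ROR elements, and recruit the corepressor NCoR with the histone deacetylase HDAC3. In liver their abundance peaks in the light phase, when they hold down Arntl, Clock, Npas2, Cry1 and Nfil3, and they are known regulators of lipid, bile acid and glucose metabolism.

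Each library held between 5621667 and 6906221 reads, as recovered from the TPM values. Between control and re-expression livers, mitochondrial transcripts took 6.73 to 7.23% against 6.06 to 7.32% of the TPM, and the 20 most abundant genes took 20.7 to 23.3% against 21.3 to 21.8%. Control livers were not alike among themselves: on the second principal component of all tested genes, which held 12.6% of the variance, control replicates 1 and 2 lay at 23.8 and 4.80 and control replicates 3 and 4 at -45.0 and -49.4. Re-expression replicates 1, 2, 3 and 4 lay at 32.0, 6.78, 1.66 and -6.25, so this component fell with replicate number in both groups. The first component held 17.3% of the variance and rose with replicate number in both groups. On it, control replicates 1, 2, 3 and 4 lay at -65.15, -36.99, -18.7 and -8.97. Re-expression replicates 1, 2, 3 and 4 lay there at -6.61, 7.93, 11.95 and 18.1. Livers labelled DKO followed replicate number on neither component. On the second, DKO replicate 3 was lowest of its group at -1.07 and DKO replicate 4 highest at 17.8. Control replicates 3 and 4, the lowest on the second component, were also the libraries with the fewest reads, 5640091 and 5621667. The labels describe each library as a biological replicate, and p-values measure the spread between such livers. In whole liver, fewer cells of a type and less RNA per cell cannot be told apart.

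Nr1d1 RNA was above control in the re-expression livers. Nr1d1 (chr11:98767932-98775333 on mm10, minus strand) stood at 64.1, 69.7, 64.9 and 76.2 TPM in the 4 control livers and at 171, 203, 174 and 217 TPM in the 4 re-expression livers. The lowest re-expression liver was above the highest control liver, and the means differed 2.78-fold. The difference was 1.46 ± 0.10 (SE) on the log2(TPM + 1) scale, with an adjusted p of 1.28e-05 from limma, and 0.0286 from an exact two-sided permutation test over 4 against 4 livers, which is the smallest p that test can give (0.194 when adjusted over the 17 single values compared in this way). Livers labelled DKO had Nr1d1 at 74.8 to 91.7 TPM, a difference from control of 0.26 with an adjusted p of 0.173. A sum over a whole gene keeps reads outside a deleted stretch, and the labels used here do not name the deleted stretch, so Nr1d1 and Nr1d2 RNA do not check the knockout. Nr1d2 (chr14:18204054-18239127, minus strand) had 96.6 ± 14.9 TPM (SD, n = 4) in control and 97.7 ± 15.1 (n = 4) in re-expression livers, overlapping groups that differed by 0.02 ± 0.13 (SE) with an adjusted p of 0.987. Thra, the thyroid hormone receptor gene that overlaps Nr1d1 on the opposite strand (chr11:98740638-98769006), had 7.45 to 8.91 TPM in control and 8.93 to 11.5 TPM in re-expression livers. Its difference was 0.31 ± 0.10 (SE) with an adjusted p of 0.204, and reads of Nr1d1 and Thra may not have been kept apart.

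Across all tested genes, 327 (1.82%) differed between re-expression and control livers at an adjusted p below 0.05 and are called here. Of these, 207 (1.15%) were higher and 120 (0.668%) were lower in the re-expression livers, and 87 and 47 of them, respectively, differed by 2-fold or more when measured as log2(TPM + 1). The values of the groups did not overlap for 326 of the 327 called genes and for 1309 genes (7.28%) in all. The median difference over all tested genes was 0.01. In the same fit livers labelled DKO differed from control in 939 called genes (5.23%), 517 higher and 422 lower, and 10 genes (0.0556%) were called between re-expression livers and livers labelled DKO. These comparisons share libraries, so their values are given side by side for named genes and their overlap is not taken as a result. Among the called genes were 36 higher and 30 lower gene models with a placeholder or clone name, of 5675 tested, which are not described. The number called rested on single livers: it was 177 without re-expression replicate 4, with 127 higher and 50 lower. The number called lower was also 68, 73 and 75 without control replicates 1, 2 and 3, and 78, 69 and 79 without re-expression replicates 1, 2 and 3. A fit of the 8 control and re-expression libraries alone called 180 genes, 120 higher and 60 lower. With the replicate number as a block, 209 genes were called, 145 higher and 64 lower.

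**Figure D1:**
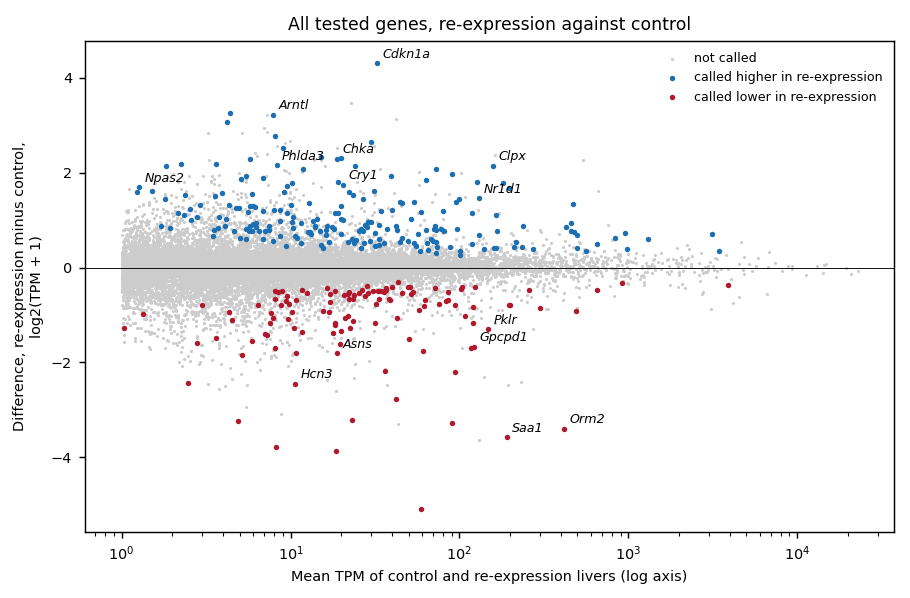
Each point is 1 of the 17971 tested genes, plotted by its mean TPM over control and re-expression livers (log axis) and its difference, re-expression minus control, on the log2(TPM + 1) scale. Blue points are the 207 genes called higher and red points the 120 called lower, with Cdkn1a and Arntl far above 0 and Saa1 and Orm2 far below.

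Among the core clock genes listed as targets of ROR elements, 5 were called higher than control. Of 6 tested, Arntl, Nfil3, Cry1, Npas2 and Clock were called higher and 1 gene lower, beside 1.15% and 0.668% of all genes. The median difference was 1.71. None of the 5 calls of higher genes was lost in an alternative that tested the gene. Arntl, which encodes the clock activator BMAL1 (chr7:113207465-113314126), stood at 1.02, 0.704, 0.624 and 0.562 TPM in control livers and at 15.6, 16, 15.2 and 13.5 TPM in re-expression livers. The groups lay 20.7-fold apart in their means with no overlap, a difference of 3.22 ± 0.11 (SE) with an adjusted p of 2.71e-08. Livers labelled DKO had 19.5, 21.4, 18.3 and 20.1 TPM of Arntl, each above every re-expression liver, while the difference between those groups was -0.38 with an adjusted p of 0.422. Npas2, which encodes an activator related to CLOCK, was listed at 0 in control replicates 1 and 4 and at 0.0863 and 0.199 TPM in control replicates 2 and 3. It had 2.15, 2.86, 1.79 and 3.11 TPM in re-expression livers and 11.6, 15.1, 10.5 and 14.8 TPM in livers labelled DKO, so the 3 groups did not overlap. Npas2 was called against control, with a difference of 1.69 ± 0.17 (SE) and an adjusted p of 0.000461, and against livers labelled DKO, with a difference of -2.01 and an adjusted p of 0.000615.

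Cry1, which encodes a repressor of CLOCK and BMAL1, had 9.15, 8.58, 7.13 and 10.9 TPM in control and 32.8, 30.6, 33.7 and 31.0 TPM in re-expression livers. It differed from control by 1.74 ± 0.13 (SE; adjusted p = 4.88e-05), and the 42.6 to 64.5 TPM of livers labelled DKO lay above both groups (re-expression minus DKO -0.71, adjusted p = 0.118). Nfil3, a repressor of D-box genes, had 22.1 to 30.3 TPM in control, 95.6 to 103 TPM in re-expression and 119 to 134 TPM in livers labelled DKO. It differed from control by 1.85 ± 0.09 (SE; adjusted p = 8.01e-07). Clock had 14.3, 17.4, 11 and 11.2 TPM in control and 30.0, 26.5, 26.5 and 27.7 TPM in re-expression livers, a 2.06-fold higher mean (difference 1.01 ± 0.13 SE, adjusted p = 0.00257). This was the smallest difference of the 5 genes that rose. The 6 genes of the NCoR-HDAC3 complex on the list were not called, with differences from -0.07 to 0.13.

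**Figure D2:**
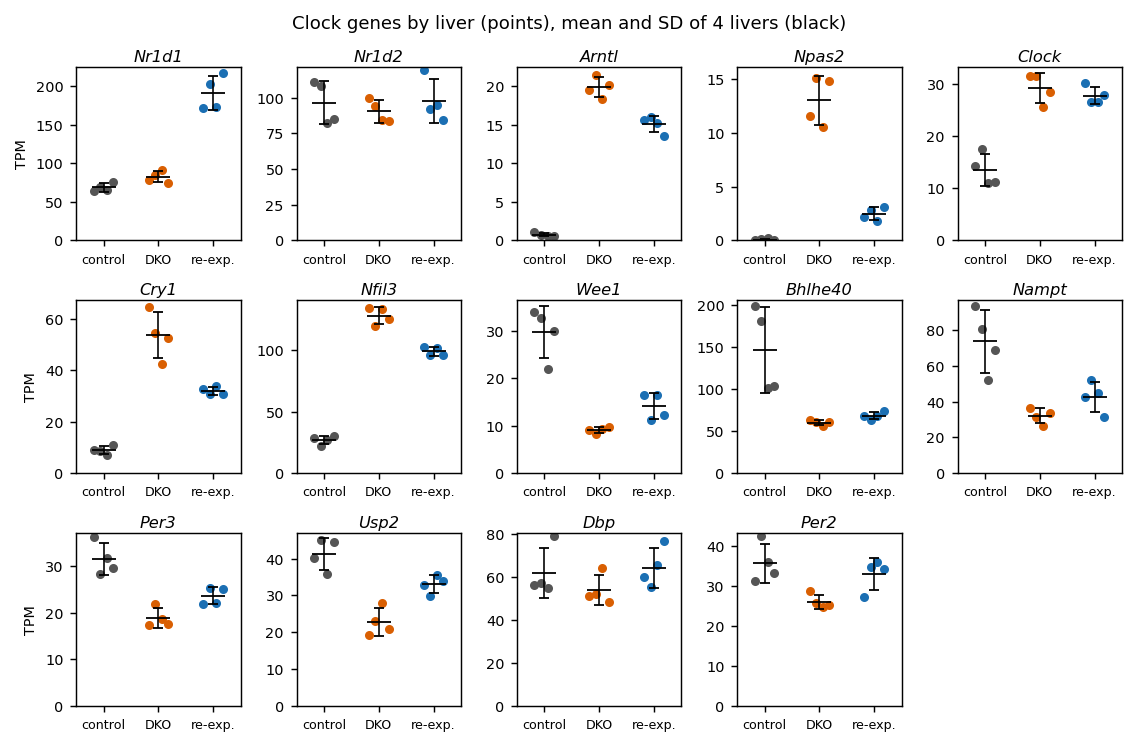
TPM of 14 clock genes in each liver of the control, DKO and re-expression groups (points), with the mean and SD of 4 livers in black and each axis starting at 0. Re-expression livers overlap with DKO livers for Clock, lie between the other groups for Arntl, Nfil3, Cry1 and Npas2, and overlap with control for Dbp and Per2.

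Clock genes with E-boxes, bound by CLOCK with BMAL1, or D-boxes, bound by DBP, TEF and HLF, were mostly not called. Of 18 tested, none was higher and 2 were lower (the whole table had 1.15% called higher and 0.668% lower), and their median difference was -0.15. Wee1, a kinase that delays mitosis, fell from 34.0, 32.7, 21.9 and 30.0 TPM in control to 16.5, 11.1, 16.4 and 12.3 TPM in re-expression livers, without overlap. Its difference was -1.02 ± 0.16 (SE) with an adjusted p of 0.00642, beside 8.32 to 9.75 TPM in livers labelled DKO. Bhlhe40, a repressor of E-box genes, had 199.1 and 182 TPM in control replicates 1 and 2, 101 and 104 TPM in control replicates 3 and 4, and 63.1 to 73.8 TPM in re-expression livers. Its difference was -1.02 ± 0.20 (SE; adjusted p = 0.0217), and leaving out control replicate 2 ended the call (adjusted p = 0.0561), as did leaving out re-expression replicate 1, 2, 3 or 4 (0.0569, 0.068, 0.0589 and 0.0551). It was also lost in a fit of the 8 control and re-expression libraries alone (0.0935).

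The values of Nampt, Per3 and Usp2 did not overlap with control either, and these genes missed the threshold. Nampt, the rate-limiting enzyme of NAD salvage, had 52.2 to 93.4 TPM in control and 31.2 to 51.8 TPM in re-expression livers (difference -0.77 ± 0.19 SE, adjusted p = 0.0675, and 0.0284 without control replicate 3). Per3 had 28.2 to 36.2 against 21.9 to 25.3 TPM (difference -0.40 ± 0.10 SE, adjusted p = 0.0819). Usp2, a ubiquitin-specific protease, had 35.8 to 45.1 against 29.8 to 35.6 TPM (difference -0.31 ± 0.12 SE, adjusted p = 0.266). In livers labelled DKO these 3 genes were called lower than control, with differences of -1.16, -0.71 and -0.84. Dbp, Per1, Per2 and Cry2 overlapped with control, with differences of 0.06 ± 0.14, -0.01 ± 0.16, -0.11 ± 0.11 and -0.06 ± 0.10 (SE). Tef, a D-box activator, had 107 to 127 TPM in control and 101 to 109.7 TPM in re-expression livers (difference -0.18 ± 0.07 SE, adjusted p = 0.267). Hlf, Ciart, Bhlhe41 and Noct overlapped with control as well, with differences of 0.24 ± 0.13, 0.30 ± 0.19, -0.41 ± 0.34 and -0.45 ± 0.36 (SE).

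The promoters of the tested genes were searched for a ROR element, spelled as AGGTCA or GGGTCA preceded by AA, any base and T, on both strands from 250 bases before to 50 bases after the start. The promoter sequences are from RefSeq on GRCm38.p6 and 10311 tested genes had one. A match was present in 42 of them (0.407%), in 4 of the 147 called higher that had a promoter (2.72%), and in 0 of the 75 called lower. The 4 genes are Arntl, Leo1, Tjp3 and Ddc. In the 250 bases before the start alone, 34 genes (0.33%) and 2 of the 147 had a match. Of the core clock genes listed as targets of ROR elements, 5 had a promoter, of which 1, Arntl, had a match, and none had one in the 250 bases before the start alone. A match describes letters in this window and is not a bound site. The sequences below show where the element sits in each of the 4, with the matched element in capitals, 5′ to 3′ on the gene's strand.
Arntl, chr7:113207528-113207557, plus strand: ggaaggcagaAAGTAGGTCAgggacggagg
Leo1, chr9:75441274-75441523, plus strand: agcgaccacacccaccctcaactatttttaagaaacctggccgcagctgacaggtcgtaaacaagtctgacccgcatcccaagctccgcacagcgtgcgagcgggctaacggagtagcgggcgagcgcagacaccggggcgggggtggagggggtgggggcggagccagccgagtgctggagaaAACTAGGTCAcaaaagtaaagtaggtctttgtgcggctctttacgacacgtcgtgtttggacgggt
Tjp3, chr10:81291582-81291831, minus strand: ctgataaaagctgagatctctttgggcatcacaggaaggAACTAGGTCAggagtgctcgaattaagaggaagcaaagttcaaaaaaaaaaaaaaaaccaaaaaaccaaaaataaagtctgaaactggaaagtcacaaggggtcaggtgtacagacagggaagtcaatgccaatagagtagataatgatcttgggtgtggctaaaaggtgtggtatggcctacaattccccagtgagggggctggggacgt
Ddc, chr11:11898144-11898394, minus strand: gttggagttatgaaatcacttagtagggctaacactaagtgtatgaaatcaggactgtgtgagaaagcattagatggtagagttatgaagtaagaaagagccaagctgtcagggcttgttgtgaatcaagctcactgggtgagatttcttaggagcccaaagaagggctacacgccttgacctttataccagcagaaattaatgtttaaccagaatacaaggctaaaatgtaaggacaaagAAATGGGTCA

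Positions are counted from the RefSeq start of the promoter table, which can differ from the start in the gene coordinates given above. In Arntl the element starts at base 28 after that start, and its 30 bases shown here are the element with 10 bases on each side. In Leo1, Tjp3 and Ddc it starts 66, 211 and 9 bases before the RefSeq start. All 4 matches lie on the strand of the gene. Leo1, a subunit of the PAF1 complex of transcription elongation, had 5.92, 5.29, 5.80 and 4.23 TPM in control and 14.2, 14.2, 16.7 and 13.9 TPM in re-expression livers (difference 1.33 ± 0.13 SE, adjusted p = 0.000321), beside 13.1 to 19.0 TPM in livers labelled DKO. Tjp3, a tight junction protein, had 5.33, 8.23, 7.67 and 10.5 against 22.0, 24.8, 34.1 and 39.4 TPM (difference 1.79 ± 0.20 SE, adjusted p = 0.000827). Ddc, which makes dopamine and serotonin from their precursors, had 14.9, 32.0, 28.7 and 23.1 against 51.9, 87.6, 55.0 and 64.7 TPM (difference 1.38 ± 0.23 SE, adjusted p = 0.00925). The groups did not overlap in any of the 3 genes. Leo1 and Ddc were chosen for their promoter match after their values were seen.

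On the log2(TPM + 1) scale, the largest rise of any called gene was that of Cdkn1a (chr17:29090976-29100727). The ratio of means was larger for Npas2, at 34.7-fold, with control values near 0. Cdkn1a encodes the cell cycle inhibitor p21 and is known as a target of both p53 and REV-ERBalpha. Cdkn1a had 2.36, 2.84, 2.04 and 1.64 TPM in control and 62.1, 50.8, 74.0 and 63.8 TPM in re-expression livers. The means lay 28.2-fold apart, with a difference of 4.31 ± 0.14 (SE) and an adjusted p of 2.38e-08. Livers labelled DKO had 46.8 to 57.3 TPM, which overlapped with the re-expression livers (difference 0.22, adjusted p = 0.973).

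Chka, the kinase that commits choline to phosphatidylcholine synthesis, had 6.87, 6.91, 4.40 and 4.80 TPM in control and 32.6, 33.3, 35.1 and 26.2 TPM in re-expression livers (difference 2.30 ± 0.17 SE, adjusted p = 3.84e-05). Clpx, the ATPase subunit of a mitochondrial protease, had 69.9, 62.1, 48.9 and 52.5 against 264, 234, 273 and 265 TPM (difference 2.14 ± 0.11 SE, adjusted p = 8.3e-07). Insig2, which retains the sterol sensor SCAP in the endoplasmic reticulum, had 54.5, 68.7, 52.1 and 46.5 against 203, 147, 262 and 180 TPM (difference 1.80 ± 0.16 SE, adjusted p = 0.000161). In each of these 3 genes the re-expression livers did not overlap with control. Lgalsl, a galectin-like gene, had 3.39 to 5.57 against 24.4 to 28.6 TPM (difference 2.33, adjusted p = 1.55e-06). Slc45a3 (difference 2.14), Tubb2a (2.08), Lrfn3 (1.87), Ndrg1 (1.73), Ppp1r3b (1.68), Zbtb16 (1.62) and Baiap2 (1.58) were called as well, with adjusted p from 0.000106 to 0.00844. Reads of the tubulin gene Tubb2a may be split with its close paralog.

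Car14, a membrane-bound carbonic anhydrase, was called in both comparisons of the re-expression livers. It had 32.9, 40.8, 33.3 and 37.3 TPM in control, 140, 161, 138 and 140 TPM in re-expression and 211, 226, 238 and 214 TPM in livers labelled DKO, so the 3 groups did not overlap. The difference was 1.98 ± 0.08 (SE; adjusted p = 1.98e-07) from control and -0.62 (adjusted p = 0.0243) from livers labelled DKO.

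**Figure D3:**
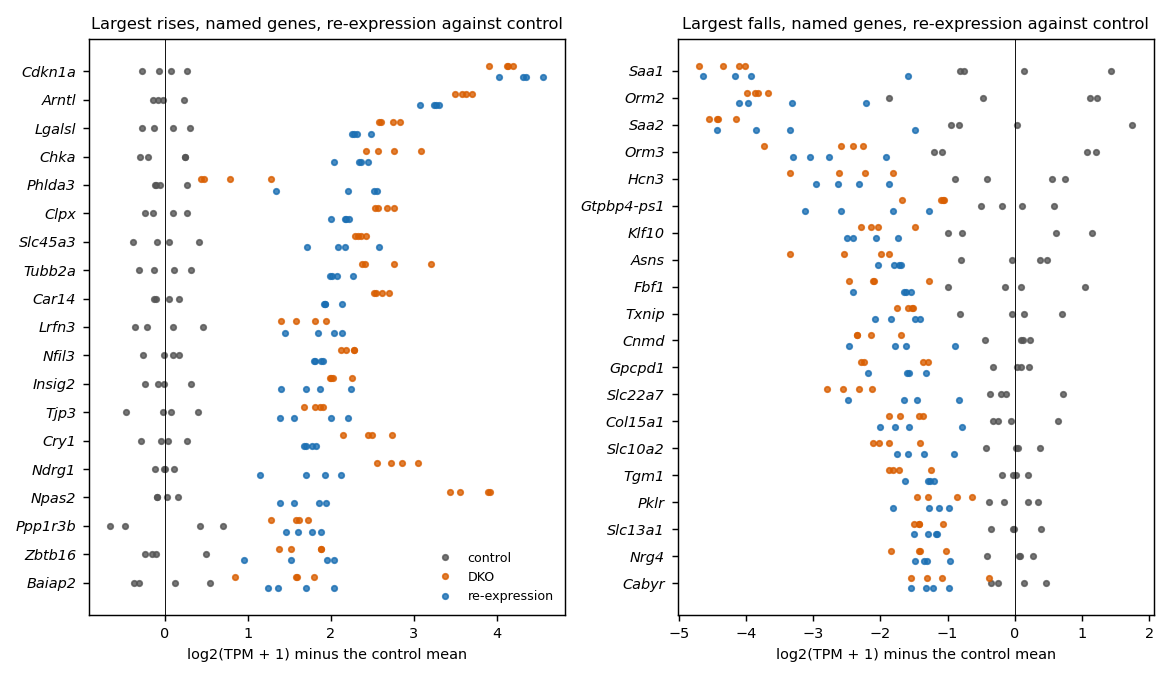
Named genes with the largest rises (left) and falls (right) among called genes, each liver plotted as its log2(TPM + 1) minus the mean of the 4 control livers. Control livers are grey, livers labelled DKO orange and re-expression livers blue, and the Saa and Orm genes and Klf10 spread over more than 2 log2 units among control livers.

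Among the named genes with the largest falls, several genes kept their calls in every alternative. Tgm1, a transglutaminase, had 28.1, 33.0, 29.1 and 24.9 TPM in control and 11.4, 11.9, 11.1 and 8.58 TPM in re-expression livers (difference -1.34 ± 0.15 SE, adjusted p = 0.000827). Gpcpd1, a glycerophosphocholine phosphodiesterase, had 189, 147, 196 and 213 against 60.0, 61.5, 39.9 and 73.3 TPM (difference -1.67 ± 0.25 SE, adjusted p = 0.00591). Slc10a2, the apical bile acid transporter, had 13.9, 10.8, 10.6 and 7.52 against 2.82, 3.53, 5.16 and 2.41 TPM (difference -1.4 ± 0.23 SE, adjusted p = 0.00972). In these 3 genes each re-expression liver was below each control liver. Nrg4, a growth factor of the neuregulin family, had 11.1 to 18.4 against 4.73 to 7.21 TPM (difference -1.28 ± 0.19 SE, adjusted p = 0.00591). The pseudogene Gtpbp4-ps1 fell by 2.20 (adjusted p = 0.00925) on about 10.9 reads per library, and its reads may belong to the parent gene.

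Some of the other large falls depended on single livers. Klf10, a zinc finger repressor known as a clock output, had 114 and 78.9 TPM in control replicates 1 and 2, 25.1 and 29.2 TPM in control replicates 3 and 4, and 8.25 to 14.5 TPM in re-expression livers (difference -2.18, adjusted p = 0.0231). Its adjusted p was 0.0656 without control replicate 2, and 0.0693, 0.069 and 0.0646 without re-expression replicates 2, 3 and 4. Slc22a7, an organic anion transporter, had 21.7 to 47.3 TPM in control and 4.28 to 15.4 TPM in re-expression livers (difference -1.60, adjusted p = 0.0299). Leaving out control replicate 2, 3 or 4 gave 0.0557, 0.0713 and 0.0579, and leaving out re-expression replicate 1, 2 or 3 gave 0.0556, 0.0772 and 0.0648. Col15a1, a basement membrane collagen, fell by 1.54 (adjusted p = 0.0169, and 0.0618 without re-expression replicate 4). Cnmd, which encodes chondromodulin, fell by 1.69 (adjusted p = 0.0132). Slc13a1, a sulfate transporter, fell by 1.28 (adjusted p = 0.0131, 0.0543 in the fit of 8 libraries alone and 0.077 with a pseudocount of 0.1). No left-out library ended the calls of Cnmd and Slc13a1, but the replicate number as a block did (0.061 and 0.0612). Fbf1 (difference -1.80, adjusted p = 0.0392) and Cabyr (-1.27, adjusted p = 0.0248) were close to the threshold. Fbf1 lost its call without any one library other than control replicate 2 and DKO replicates 1 and 3, with adjusted p from 0.0612 to 0.113, and Cabyr did so without control replicates 2 and 3 (0.0664 and 0.0676) and re-expression replicates 1, 3 and 4 (0.0594, 0.0678 and 0.0817).

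Targets of p53, the transcription factor that responds to DNA damage, held 5 calls, all higher. Of 20 tested, 5 were called higher and none lower, beside 1.15% and 0.668% of all genes, and the median difference was 0.55 against 0.01 over all genes. The differences ran from -1.59 to 4.31, and 1 target was called lower without DKO replicate 3 and with voom on the recovered reads. The median of the same 20 genes between livers labelled DKO and control was 0.17, with 1 called higher and 1 lower. Phlda3, a p53 target that restrains AKT, had 2.14, 2.91, 2.02 and 2.02 TPM in control, 17.7, 7.25, 18.2 and 14.0 TPM in re-expression and 3.40, 6.88, 3.52 and 4.62 TPM in livers labelled DKO. The 3 groups did not overlap. The difference from control was 2.16 ± 0.27 (SE; adjusted p = 0.00179) in re-expression livers and 0.74 (adjusted p = 0.157) in livers labelled DKO, and the groups other than control differed from each other by 1.41 with an adjusted p of 0.12.

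Apart from Cdkn1a and Phlda3, the called p53 targets were Aen, Ccng1 and Eda2r. Aen, an apoptosis-enhancing nuclease, had 13.2, 13, 10.8 and 11.4 TPM in control and 17.3, 17.7, 21.9 and 23.9 TPM in re-expression livers (difference 0.69 ± 0.11 SE, adjusted p = 0.00972). Ccng1, which encodes cyclin G1, had 65.1, 62.2, 43.4 and 55.7 against 120, 83.9, 98.8 and 94.0 TPM (difference 0.80 ± 0.14 SE, adjusted p = 0.0114). Both were without overlap, and in a fit of the 8 libraries alone their adjusted p was 0.0573 and 0.0522. Eda2r, a receptor of the TNF family, had 1.61 to 4.61 against 5.84 to 10.5 TPM (difference 1.30, adjusted p = 0.0349). Its call was lost without DKO replicate 4 (0.0567), without control replicate 2, 3 or 4 (0.0779, 0.0848 and 0.0729) and without re-expression replicate 1, 3 or 4 (0.0978, 0.106 and 0.0851). Zmat3, an RNA-binding protein, had 3.79 to 6.32 against 7.13 to 10.1 TPM and just missed the threshold (difference 0.71 ± 0.16 SE, adjusted p = 0.0522, and 0.045 and 0.0393 without control replicates 1 and 2). With 1 library left out, 4 to 6 p53 targets were called higher, and in the fit of 8 libraries alone 2 were. None of 15 tested cell cycle genes was called, with a median of 0.04.

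Acute phase proteins, which hepatocytes secrete in inflammation, held 5 calls, all lower. Of 25 tested, 5 were called lower and none higher, beside 0.668% and 1.15% of all genes, and 22 had a difference below 0, with a median of -0.50. Saa1, a serum amyloid gene, had 308, 165, 754 and 159 TPM in control and 17.5, 10.3, 92.2 and 14.6 TPM in re-expression livers. The group means lay 10.3-fold apart without overlap, although control replicate 3 and re-expression replicate 3 stood well above the others of their groups. Its difference was -3.58 ± 0.63 (SE) with an adjusted p of 0.014. Orm2, an orosomucoid gene, had 1306, 403, 1217 and 153 against 55.1, 34.9, 120 and 31.7 TPM (difference -3.40 ± 0.62 SE, adjusted p = 0.0169). Saa4 had 816, 577, 751 and 440 against 329, 305, 401 and 303 TPM (difference -0.92 ± 0.17 SE, adjusted p = 0.0169). Saa2 and Orm3 fell by 3.28 and 2.76 (adjusted p = 0.0261 and 0.0348). Orm1 overlapped between the groups, with 2569 to 5027 against 1803 to 2782 TPM (difference -0.87 ± 0.20 SE, adjusted p = 0.051, and 0.00812 and 0.0389 without control replicate 4 and re-expression replicate 3). Reads of the near-identical members of the Saa and Orm families may be split between them.

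The acute phase calls rested on few livers. None of the 25 genes was called without re-expression replicate 4, and 3, 1, 3 and 2 were called without control replicate 1, control replicate 3, re-expression replicate 1 and re-expression replicate 2, while 7 were called without control replicate 4 or re-expression replicate 3. Without re-expression replicate 4 the adjusted p was 0.0539 for Saa1, 0.0619 for Orm2, 0.0615 for Saa4, 0.0852 for Saa2 and 0.11 for Orm3. Orm2 also lost its call without control replicate 3 (0.0516) and re-expression replicate 2 (0.0558), and Saa4 without the same livers (0.052 and 0.0554). Saa2 did so without control replicates 1 and 3 (0.066 and 0.0514) and re-expression replicates 1 and 2 (0.0683 and 0.0725). Orm3 did so without control replicates 1 and 3 (0.0879 and 0.0905), DKO replicates 2 and 4 (0.0504 and 0.0555) and re-expression replicates 1 and 3 (0.0925 and 0.0884). In the fit of the 8 libraries alone none of the 25 was called. The summed TPM of 12 Kupffer cell markers was 523 to 1162 in control and 473 to 1153 in re-expression livers and was highest in replicate 1 of each group. Saa1 was highest in replicate 3 of each group, and Orm2 in control replicate 1 and re-expression replicate 3. Of the Kupffer cell markers 11 of 12 had a difference below 0, with a median of -0.28 and none called. The part of these markers in the acute phase differences was not tested. The summed TPM of 12 neutrophil and monocyte markers was 93.4 to 258 against 83.7 to 300.04, also highest in replicate 1 of each group. The interferon response and antigen presentation list had none of 33 tested genes called, 31 of them below 0 and a median of -0.18, beside 8639 of 17971 below 0 over all tested genes.

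**Figure D4:**
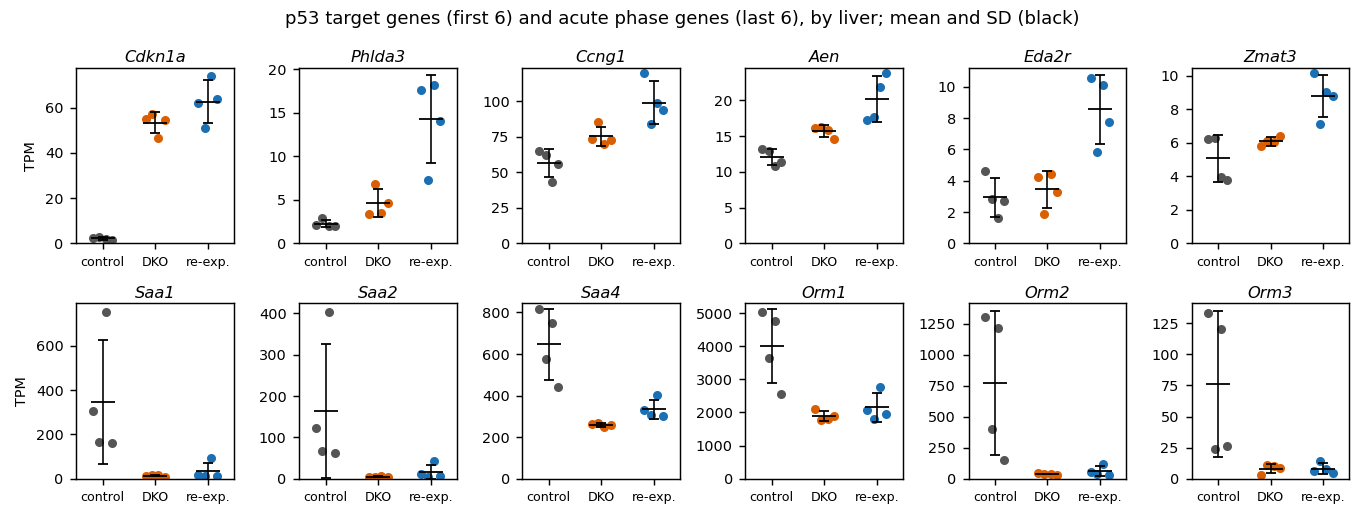
TPM of 6 p53 targets (upper row) and 6 acute phase genes (lower row) in each liver, with the mean and SD of 4 livers in black and each axis starting at 0. Phlda3 and Eda2r in re-expression livers lie above both other groups. Saa1 and Orm2 are spread widely among control livers and low in the others, while Orm1 overlaps between control and re-expression livers.

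Glucose and glycogen genes held 4 calls that no left-out library ended. Of 23 tested, 1 was called higher and 3 lower, beside 1.15% and 0.668% of all genes. The differences ran from -2.04 to 1.68 with a median of -0.03, and the lowest of them, of Ppp1r3g, was not called (adjusted p = 0.0798). Ppp1r3g was named after its values were seen. Slc2a2, the main glucose transporter of hepatocytes, had 303, 327, 274 and 290 TPM in control and 216, 207, 209 and 227 TPM in re-expression livers (difference -0.47 ± 0.06 SE, adjusted p = 0.00274). Pklr, the liver pyruvate kinase of glycolysis, had 236, 262, 158 and 185 against 58.2, 94.0, 84.2 and 104 TPM (difference -1.30 ± 0.23 SE, adjusted p = 0.0132). Txnip, a glucose-induced inhibitor of glucose uptake, had 276, 96.1, 165 and 187 against 62.9, 39.5, 46.7 and 60.2 TPM (difference -1.70 ± 0.26 SE, adjusted p = 0.006). The groups did not overlap in these genes, and livers labelled DKO had 207 to 221, 74.6 to 132 and 49.4 to 58.6 TPM, respectively. Ppp1r3b, which targets protein phosphatase 1 to glycogen, rose from 123, 149, 65.3 and 57.8 TPM in control to 253, 314, 280 and 339 TPM in re-expression livers (adjusted p = 0.00703). Its relative Ppp1r3c had 35.6 to 87.6 against 107 to 224 TPM, without a call (difference 1.48 ± 0.35 SE, adjusted p = 0.0612). The channel gene Hcn3 (difference -2.44, adjusted p = 0.0114) overlaps Pklr on the opposite strand, and their reads may not have been kept apart.

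Fatty acid synthesis genes were below control in most members, with few calls. Of 18 tested, 15 had a difference below 0 and the median was -0.36. Of the 18, 1 was called lower and none higher, beside 0.668% and 1.15% of all genes. That gene was Tkfc, a fructose metabolism kinase, with 223 to 279 TPM in control and 129 to 171 TPM in re-expression livers (difference -0.79, adjusted p = 0.0177). Its call was lost without control replicate 1 or 2 (0.0529 and 0.0507) and without re-expression replicate 1 or 2 (0.0543 and 0.058). Fasn, the fatty acid synthase, had 192 to 245 against 66.1 to 135 TPM (difference -1.17 ± 0.29 SE, adjusted p = 0.0722), and the elongase gene Elovl6 had 43.1 to 71.0 against 19.2 to 28.4 TPM (difference -1.23 ± 0.28 SE, adjusted p = 0.0519). Srebf1, the transcription factor that drives these enzymes, had 140 to 244 against 53.8 to 132 TPM (difference -1.07 ± 0.30 SE, adjusted p = 0.116). The groups did not overlap in Fasn, Elovl6 and Srebf1, and the differences missed the threshold. Livers labelled DKO had 69.5 to 157, 18.8 to 51.1 and 82.6 to 169 TPM of the 3 genes.

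Cholesterol synthesis and uptake had 1 of 25 tested genes called higher, Insig2, and none lower, beside 1.15% and 0.668% of all genes. Its median was -0.12. The 28 tested genes of fatty acid oxidation and ketogenesis had a median of 0.11. Ppara, the nuclear receptor that drives this pathway, had 251 to 268 TPM in control, 192 to 234 TPM in re-expression and 147 to 167 TPM in livers labelled DKO, 3 groups without overlap. It was called between livers labelled DKO and control (difference -0.67, adjusted p = 0.0004) and missed the threshold between re-expression and control (-0.29 ± 0.08 SE, adjusted p = 0.086). Cyp4a10, a fatty acid hydroxylase induced by PPARalpha, varied widely among control livers, at 563, 533, 130.1 and 219 TPM, and had 1224, 636, 1028 and 938 TPM in re-expression livers (difference 1.61 ± 0.48 SE, adjusted p = 0.138).

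None of 10 acyl-CoA thioesterase genes was called against control, with a median of -0.08. Acot4, a peroxisomal thioesterase, had 35.9, 22.8, 16.4 and 28.0 TPM in control, 18.1, 14.1, 13.5 and 13.4 TPM in re-expression and 4.59, 5.12, 5.45 and 4.64 TPM in livers labelled DKO. Re-expression livers overlapped with control and not with livers labelled DKO. The difference from control was -0.72 ± 0.19 (SE; adjusted p = 0.0969), and that from livers labelled DKO was 1.4 (adjusted p = 0.0294). Acot3, its neighbour, had 2.82 to 9.52, 1.59 to 4.90 and 0.131 to 0.357 TPM in the control, re-expression and DKO groups, with differences of -0.65 ± 0.32 (SE; adjusted p = 0.445) and 1.82 (adjusted p = 0.1).

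Among 26 genes of lipid droplets and lipoproteins, 2 were called higher and none lower, beside 1.15% and 0.668% of all genes. Plin5, a lipid droplet coat protein, had 30.9, 41.8, 31.7 and 36.4 TPM in control and 56.5, 66.1, 110.1 and 100.1 TPM in re-expression livers (difference 1.18, adjusted p = 0.017, and 0.0521, 0.0536 and 0.0615 without control replicate 1, control replicate 3 and re-expression replicate 4). Lipc, the hepatic lipase, had a difference of 0.44 (adjusted p = 0.018, and 0.0519 and 0.0598 without control replicate 3 and re-expression replicate 2). Lipg, the endothelial lipase, had 11.4 to 29.8 against 5.55 to 12 TPM, with overlap (difference -1.04 ± 0.30 SE, adjusted p = 0.128). Bile acid genes split, with 1 of 20 called higher and 1 lower and a median of 0.01. Slc10a1, the sodium-dependent bile acid importer, had 790, 743, 747 and 746 TPM in control and 508, 570, 529 and 578 TPM in re-expression livers (difference -0.47 ± 0.08 SE, adjusted p = 0.0088). Cyp8b1, the sterol hydroxylase that sets the cholic acid share, had 236, 370, 345 and 305 against 536, 555, 517 and 806 TPM (difference 0.94 ± 0.18 SE, adjusted p = 0.0207). The groups did not overlap in either gene. The call of Cyp8b1 was lost without control replicate 1 or 4 (0.0513 and 0.051) and re-expression replicate 4 (0.0532).

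Of 37 tested amino acid genes, 3 were called higher and 1 lower, beside 1.15% and 0.668% of all genes. Their median was 0.13, and 30 of the 37 were above 0, beside 9332 of 17971 over all tested genes. Gldc, the decarboxylase of the glycine cleavage system, had 43.8, 58.7, 59.2 and 47.8 TPM in control and 114, 148, 177 and 143 TPM in re-expression livers (difference 1.45 ± 0.15 SE, adjusted p = 0.000506). Asns, the asparagine synthetase, went the other way, with 40.1, 37.0, 27.6 and 15.9 against 7.94, 8.09, 6.18 and 7.52 TPM (difference -1.81 ± 0.33 SE, adjusted p = 0.018). Its groups did not overlap, but the adjusted p was 0.0542, 0.0533 and 0.0502 without control replicates 1, 2 and 3, and 0.0569 and 0.0551 without re-expression replicates 3 and 4. Oat and Agxt, transaminases of ornithine and of alanine with glyoxylate, had differences of 0.62 and 0.69 (adjusted p = 0.0205 and 0.0216). Oat lost its call without control replicate 3 (0.0609) and re-expression replicates 1 and 4 (0.0632 and 0.0647), and Agxt did so without control replicate 2 (0.0615) and re-expression replicates 2, 3 and 4 (0.058, 0.0648 and 0.0706).

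Xenobiotic metabolism had 6 of 33 tested genes called higher and none lower, beside 1.15% and 0.668% of all genes, with a median of 0.20 and 25 of 33 above 0. Gstm2, a glutathione transferase, had 63.6, 87.1, 75.3 and 67.1 TPM in control and 181, 134, 161 and 184 TPM in re-expression livers (difference 1.16 ± 0.14 SE, adjusted p = 0.00114). Cyp2a5, a cytochrome P450 of the coumarin hydroxylase family, had 2207, 2792, 1933 and 2723 against 4233, 3686, 3674 and 3937 TPM (difference 0.70 ± 0.11 SE, adjusted p = 0.00925). The groups did not overlap in either gene, and reads of the Gstm and Cyp2a families may be split between close paralogs. The other 4 calls were Gstm3 (1.35, adjusted p = 0.0262), Ces1g (0.34, 0.0207), Nr1i3 (0.32, 0.0356) and Ephx1 (0.59, 0.0412). All 4 lost their calls when single livers were left out. Gstm3 did so without control replicate 1, 3 or 4 or re-expression replicate 1, 3 or 4 (adjusted p from 0.066 to 0.0817), and Ces1g without control replicate 2 or 3 or re-expression replicate 2 or 4 (0.0536 to 0.0705). Nr1i3 did so without any one re-expression replicate, DKO replicate 1, 2 or 3, or control replicate 2 or 3 (0.0509 to 0.0999), and Ephx1 without control replicate 1 or 4, any one DKO replicate or any one re-expression replicate (0.0574 to 0.111). Without 1 library the list had 2 to 6 called genes, 2 of them without re-expression replicate 4, 3 without control replicate 3 or re-expression replicate 1, 2 or 3, and 4 without control replicate 1 and without each of DKO replicates 1, 2 and 3. Nr1i3, the nuclear receptor CAR that drives many of these enzymes, had 60.4 to 69.7 TPM in control, 78.8 to 83.1 TPM in re-expression and 63.2 to 70.3 TPM in livers labelled DKO.

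Glucocorticoid response genes held 2 calls among 12 tested, both higher and kept in every alternative. The whole table had 1.15% of genes called higher and 0.668% lower. The 12 genes had a median of 0.07, with 7 above and 5 below 0 and a lowest difference of -0.73. Only the 2 called genes had an unadjusted p below 0.05 by limma. Tsc22d3, which encodes GILZ, had 45.2, 52.0, 55.8 and 39.9 TPM in control and 106, 93.9, 120 and 127 TPM in re-expression livers (difference 1.20 ± 0.16 SE, adjusted p = 0.00257). Zbtb16, which encodes the zinc finger factor PLZF, had 12, 20.6, 12.8 and 13.2 against 28.8, 58.5, 62.0 and 42.8 TPM (difference 1.62 ± 0.24 SE, adjusted p = 0.00536). Heme synthesis had 1 of 11 called, Uros, with a difference of 0.42 (adjusted p = 0.0305, and 0.0533 to 0.08 without control replicate 1, 3 or 4 or any one re-expression replicate). No gene was called in the growth hormone and STAT5 list (13 tested), the male-biased and female-biased lists (19 and 9), the endoplasmic reticulum stress list (24), the heat shock list (12) or the hepatocyte transcription factor list (18). Their medians were 0.21, 0.01, 0.21, 0.03, 0.01 and 0.03. The female-biased Cyp2a4 spread over 17.5 to 221 TPM in re-expression livers beside 11.3 to 25.3 TPM in control (difference 2.01 ± 0.81 SE, adjusted p = 0.316). Of 17 pericentral and Wnt target genes, 1 was called, Oat.

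A list without a call by limma could still hold members at an unadjusted p below 0.05. These were 7 of the endoplasmic reticulum stress genes, 5 each of the hepatocyte transcription factors and interferon genes, 4 each of the male-biased genes, hepatocyte markers and red blood cell markers, 3 each of the growth hormone and female-biased genes, and 2 each of the thioesterases, cell cycle genes and Kupffer cell markers. Among neutrophil and monocyte markers 1 gene passed, and none did in the NCoR-HDAC3, heat shock, sinusoidal endothelium and lymphocyte lists. Over all tested genes 2272 did. With voom on the recovered reads, 1 gene was called in each of the thioesterase, growth hormone, male-biased, female-biased, endoplasmic reticulum stress, hepatocyte transcription factor and red blood cell lists, and none in the others named here.

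**Figure D5:**
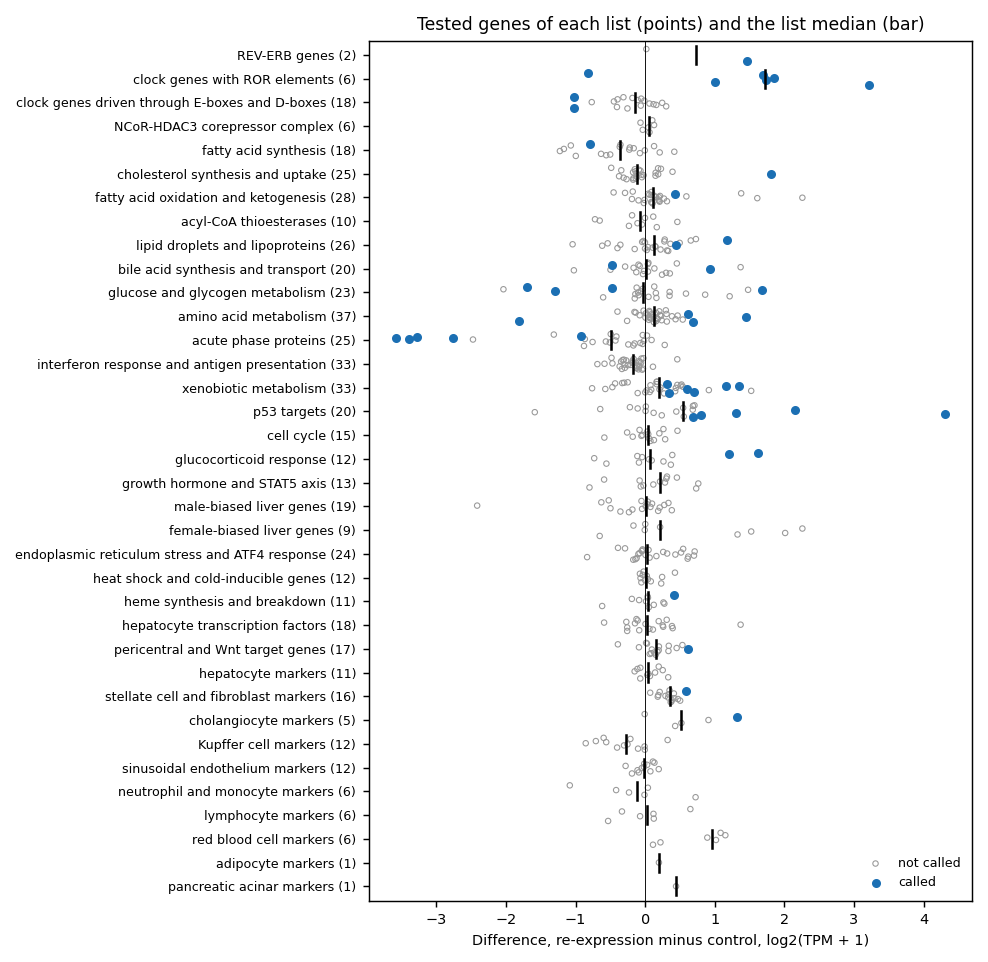
Differences between re-expression and control livers on the log2(TPM + 1) scale for the tested genes of each list, with the number tested in brackets, called genes filled and the list median as a bar. Clock genes listed as targets of ROR elements reach 3.22 and acute phase genes reach -3.58, while most lists have medians near 0.

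Markers of other cell types were checked beside these results, in which 1.15% of all genes were called higher and 0.668% lower. The 11 tested hepatocyte markers had a median of 0.05 and none was called, and their summed TPM was 65123 to 72642 in control and 68690 to 73147 in re-expression livers. All 16 stellate cell and fibroblast markers had differences above 0, with a median of 0.36. Their summed TPM was 328 to 478 in control, 447 to 553 in re-expression and 526 to 585 in livers labelled DKO (p = 0.0571 between re-expression and control by an exact permutation test, 0.194 adjusted over 17 values). Of these markers Reln was called, with a difference of 0.59 and an adjusted p of 0.039 that ranged from 0.0531 to 0.109 without any one of the 12 libraries other than control replicate 4. Among 5 cholangiocyte markers Sox9, a transcription factor of duct cells and periportal hepatocytes, was called. It had 2.65, 1.91, 2.32 and 1.28 TPM in control and 7.30, 4.80, 7.07 and 7.16 TPM in re-expression livers (difference 1.33 ± 0.21 SE, adjusted p = 0.00772). The summed TPM of 9 cholangiocyte markers overlapped, at 77.6 to 106 against 82.3 to 113. Red blood cell markers summed to 286 to 392 TPM in control and 386 to 852 TPM in re-expression livers (exact permutation p = 0.0571, 0.194 adjusted), and their 6 tested genes had a median of 0.95 with none called. Hbb-bs, a beta globin gene, had 73.2 to 155 against 142 to 347 TPM (difference 1.15 ± 0.31 SE, adjusted p = 0.0959). The 12 sinusoidal endothelium markers and 6 lymphocyte markers had medians of -0.02 and 0.02 with none called. The adipocyte markers Adipoq and Lep and the pancreatic markers Prss2, Pnlip, Amy2a5 and Try5 were at 0 in all 8 libraries. Over all 7 pancreatic markers, of which 1 was tested, the summed TPM was 10.2 to 15.7 in control, 13.3 to 21.3 in re-expression and 20.9 to 29.9 in livers labelled DKO (exact permutation p = 0.0571 between re-expression and control, 0.194 adjusted). The part of stellate, duct, blood or pancreatic cells in the other differences was not tested.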

How the data were processed

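Total RNA of 12 mouse livers was sequenced with a stranded kit, per the labels' protocols. The submitters' processing notes list DESeq2 1.36.0, featureCounts 2.0.1, SAMtools 1.9, STAR 2.7.1a, bcl2fastq 2.17 and the build mm10. The sources used here do not say whether counting used strand. The authors deposited TPM values for 48537 genes, together with fold changes and p-values of 3 comparisons whose headers give only numbers and which were not used.

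Values were taken as log2(TPM + 1), so fold changes of genes with little RNA are understated. Tested genes had a mean of 1 TPM or more over the 8 control and re-expression libraries. Group means were fitted to all 12 libraries in limma 3.58.1 (R 4.3.3) with 9 residual degrees of freedom, a mean-variance trend, two-sided tests, Benjamini-Hochberg adjustment over 17971 genes and a threshold of 0.05. Unless another test is named, each adjusted p is from this fit. Single values were compared by exact permutation tests. DESeq2 and edgeR were not run here.

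TPM times gene length less 199 bases came in whole steps, 1 size per library, for 100% of values above 0, within 0.01 reads, and the steps gave each library's reads. The chi-square per degree of freedom between replicates was 4.08 to 13.5, above sampling noise for every pair. It was 5.82 to 13.5 in control, 4.17 to 8.95 in re-expression and 4.08 to 6.59 in DKO livers. The main fit took 1 spread per gene over all 3 groups. On simulated reads for re-expression against control over 17370 genes, the test called 19 of 99 genes changed 2-fold (19.2%), 88 of 99 changed 4-fold (88.9%) and 7 of 17172 unchanged genes. The simulation used 1 dispersion for all genes and groups, had no replicate structure, and changed only genes with at least 10 expected reads. Its rates may therefore not hold for the real livers.

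The rule for named genes took Nr1d1, Nr1d2 and Thra, the tested clock genes, the 20 largest rises and 20 largest falls among called genes with named models and groups that do not overlap, and up to 6 genes of smallest p in each other list, 233 genes in all. With 2 genes added after their values were seen, 95 were picked for the text and checked for stability and outlying livers, also with their values known. A few genes that the rule admits are left out here. The members and the 36 gene lists (600 of 603 genes matched by symbol, 539 tested) were chosen with earlier results of these data known. Positions are from GENCODE release 21 (mm10), found for 17931 tested genes, and promoters are from RefSeq on GRCm38.p6. Alternatives were pseudocounts of 0.1 and 0.5, other filters, scalings and weights, a robust prior, the 8 libraries alone, the replicate number as a block, voom on the recovered reads, and each library left out in turn.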

Additional observations from a re-analysis of the deposited data

Results flagged for a closer look

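In 19 of 285 groups of 4 livers checked (95 genes in 3 groups), 1 liver lay far from the other 3 by Dixon's test at the 95% level. Chance flags about 1 in 20 groups.

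Among control livers, replicate 2 was high for Phlda3 (2.91 TPM, the others at most 2.14), Zbtb16 (20.6, the others at most 13.2) and Ppara (268, the others at most 253). Control replicate 4 was high for Dbp (78.8 TPM, the others at most 57.2), control replicate 3 for Slc22a7 (47.3, the others at most 25.7) and control replicate 1 for Slc10a1 (789.6 TPM, the others at most 747).

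Among re-expression livers, replicate 3 was high for the acute phase genes Saa1 (92.2 TPM, the others at most 17.5) and Saa2 (42.3, the others at most 10.9) and for Leo1 (16.7, the others at most 14.2), and low for Fbf1 (2.13, the others at least 4.26). Re-expression replicate 2 was high for Car14 (161 TPM, the others at most 139.8) and low for Gstm3 (462, the others at least 713) and Sox9 (4.80, the others at least 7.07). Re-expression replicate 1 was high for Acot4 (18.1 TPM, the others at most 14.1), and re-expression replicate 4 was high for Cyp8b1 (806, the others at most 555).

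Among livers labelled DKO, replicate 4 was low for Gtpbp4-ps1 (44.8 TPM, the others at least 68.1), and replicate 1 was high for Insig2 (265, the others at most 226) and Acot3 (0.357, the others at most 0.138). DKO replicate 3 was low for Ppp1r3c (113 TPM, the others at least 251). All of these values enter the comparisons of the report.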

How the results depend on the processing

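Of the 68 called genes given in the text, 38 were called in all 24 alternatives and 30 were lost in at least 1. None changed direction, and 13 of the 27 genes not called were called in at least 1 alternative. The fit of the 8 control and re-expression libraries alone called 180 genes, 120 higher and 60 lower. It has fewer samples and leaves out the spread of the DKO livers, and the part of each was not tested. voom on the recovered reads called 539, 302 higher and 237 lower. With 1 library left out, 177 to 328 genes were called, 127 to 201 higher and 50 to 127 lower. In the other alternatives apart from the replicate block, 270 to 380 were called.

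Control, DKO and re-expression libraries share replicate numbers. Deviations from the group means of same-numbered control and re-expression libraries correlated at 0.139, 0.0401, 0.0683 and 0.0858. These correlations were weak, but each control library correlated best with its own number. The main fit did not pair the livers, and whether a shared number marks a shared batch was not tested. With the replicate block 209 genes were called, 145 higher and 64 lower, and 15 of the 68 called genes were lost, among them Hcn3, Cnmd and Slc13a1 (adjusted p = 0.0558, 0.061 and 0.0612).

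Of genes not called, 4 changed direction. With sample quality weights Per1 differed by 0.0227 and Nr1d2 by -0.0245. With 1 library left out Per1 ranged from -0.13 to 0.11, Nr1d2 from -0.0835 to 0.0855, Cry2 from -0.11 to 0.000202 and Dbp from -0.0263 to 0.18. The cause was not tested. Depth limits genes with few reads: 4573 tested genes had under 10 reads per library, and 24 of them were called. Most 2-fold changes were not called in the simulated data.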
